A study of Homo sapiens with 11 samples.

Results

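The autophagy machinery and the vacuolar proton pump were examined as a list of 34 genes: 16 subunits of the pump, 16 autophagy factors and the transcription factors TFEB and TFE3. The list was drawn by name, with earlier results of these data known. All 34 were among the 17033 genes that passed a filter on low counts, of 61542 genes summed from the transcripts. The study searched for compounds that selectively kill senescent cells, and RNA was sequenced from SK-MEL-103 cells, a line established from a human melanoma. They were kept for 6 days with 0.5 µM tozasertib, an inhibitor of the Aurora kinases that drive mitosis, with 0.25 µM etoposide, which poisons topoisomerase II and so breaks DNA, or with the solvent DMSO alone. Medium and drug were renewed on day 3 in each group. The sample titles call the cells with either drug senescent and those with DMSO non-senescent. Tozasertib had 3 samples (replicates 1, 2 and 4), etoposide had 4 and DMSO had 4. Whether the replicates came from separate cultures is not stated, so the p-values refer to the spread among these libraries, and that spread may be technical.

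In autophagy a double membrane closes around cytoplasm and cargo and then fuses with the lysosome. The kinase ULK1 and a lipid kinase complex around Beclin 1 start the membrane, and a conjugation machinery that includes ATG7, ATG5, ATG12 and ATG16L1 couples small ATG8 proteins (LC3 and GABARAP) to it. Cargo receptors such as p62 and NBR1 bind both the cargo and the ATG8 proteins. The vacuolar proton pump, or V-ATPase, acidifies the lysosome: its V1 sector in the cytosol hydrolyses ATP and its V0 sector in the membrane carries the protons. TFEB and TFE3 belong to the MiT/TFE family, which drives the transcription of many lysosomal and autophagy genes. Senescent cells are known for an enlarged lysosomal compartment.

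Total estimated reads ran between 27882689 and 56534763 per sample. The unit CPM stands for reads per gene, scaled to a common library total with factors from the trimmed mean of M-values (TMM). The label check held in every sample: the cell cycle inhibitor CDKN1A had 1486 to 1515 CPM with tozasertib, 1373 to 1441 CPM with etoposide and 421 to 503 CPM with DMSO, and the proliferation marker MKI67 had 20.1 to 34.6 CPM, 35.5 to 57.05 CPM and 177 to 244 CPM in the same order. Of 7 melanoma and melanocyte markers, MLANA, TYR and DCT stayed under 1 CPM everywhere, while SOX10 had 317 to 542 CPM. SOX10 averaged 380 CPM with tozasertib, 323 CPM with etoposide and 514 CPM with DMSO. MITF had 6.63 to 10.4 CPM, PMEL 0.187 to 4.16 CPM and S100B 0.775 to 3.59 CPM. The means of MITF, PMEL and S100B were higher with each drug than with DMSO. The summed level of 5 fibroblast markers was 119 to 123 CPM with tozasertib, 137 to 154 CPM with etoposide and 24.8 to 29.8 CPM with DMSO, with COL1A2, DCN and PDGFRA under 1 CPM, and the part of other cells in the results was not tested. The sum of 5 immune markers was 43.6 to 48.5, 35.4 to 42.6 and 56.5 to 68.9 CPM, with PTPRC, CD3E and CD14 under 1 CPM, and those of 5 keratinocyte and 4 endothelial markers reached at most 3.70 and 1.64 CPM. DMSO replicate 1 stood apart by gene length: across genes, its deviation from the mean of its group had a Spearman rho of -0.48 with transcript length, against 0.40 in DMSO replicate 4, 0.22 and 0.13 in the other DMSO libraries and -0.08 to 0.11 in the 7 drug-treated libraries. For genes in which that sample stood apart or moved a call, values without it are also given.

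Most members were higher after either drug. With etoposide against DMSO, 24 of 34 rose and 4 fell (edgeR quasi-likelihood test, Benjamini-Hochberg adjusted p under 0.05), and of all genes tested 27.7% rose and 30.6% fell. With tozasertib against DMSO, 19 rose and 2 fell, and of all genes 29.9% rose and 29.4% fell. With 1 sample left out, 16 to 23 members rose with tozasertib and 21 to 25 with etoposide. The median log2 fold change of the members was 0.33 with etoposide and 0.23 with tozasertib, and that of all genes was -0.01 and 0.02. Both comparisons use the same 4 DMSO samples, so their calls are not independent. The 19 genes that rose with tozasertib also rose with etoposide, ATG5 and UVRAG fell with both drugs, and no member was called in opposite directions. Etoposide alone gave 5 further higher calls (ATP6V1F, ATP6V0D1, GABARAP, GABARAPL2 and ATG9A) and 2 further lower calls (ATP6V0A1 and RUBCN), and 6 members (ATP6V1C1, ATP6V0B, ATP6V0C, TFEB, ATG7 and ATG12) were called with neither drug. A call with 1 drug and not the other is no difference between the drugs, which were compared directly. In bulk RNA, a change in the share of cells and a change in RNA per cell cannot be told apart.

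**Figure D1:**
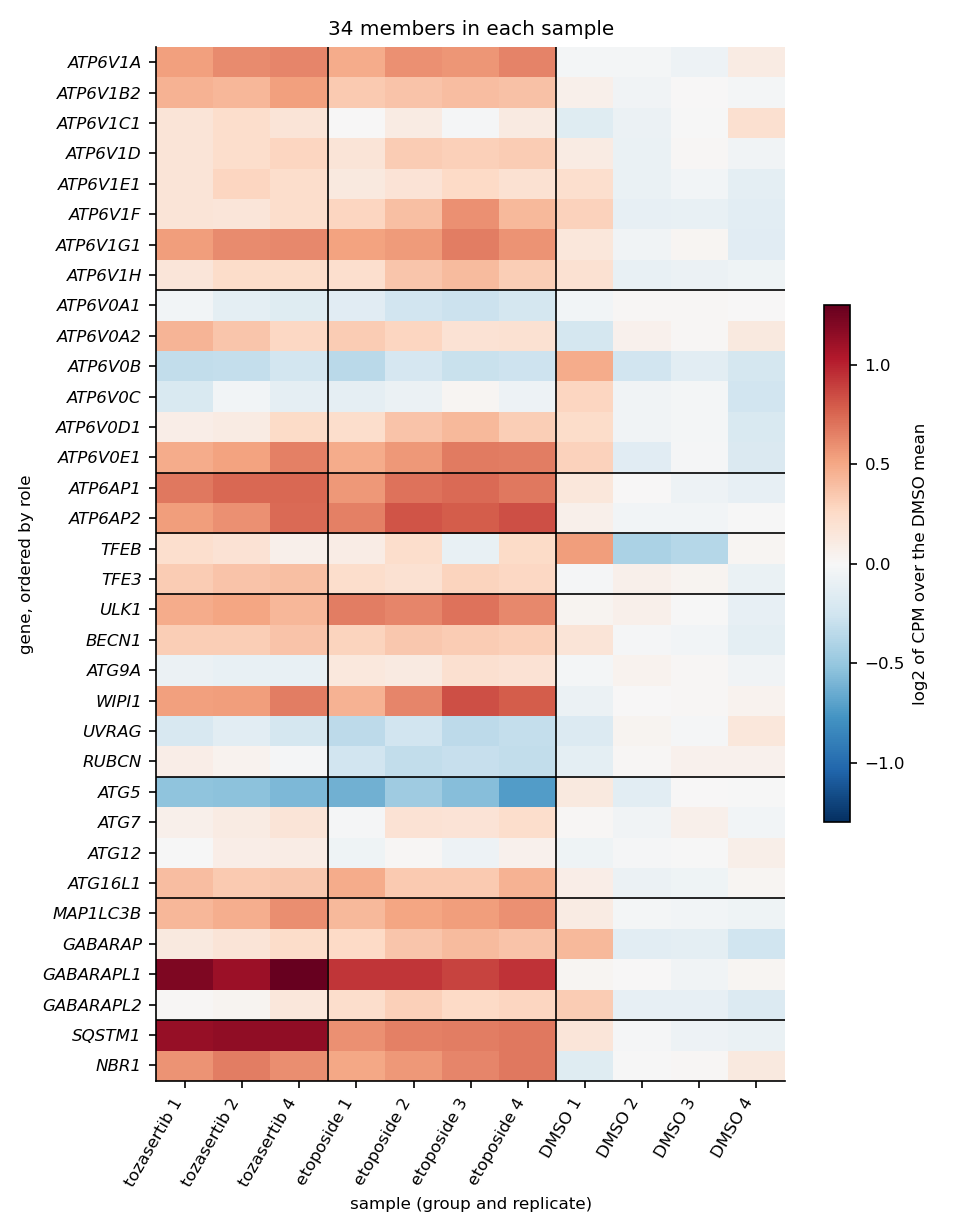
Level of each of the 34 members (rows, grouped by role) in each of the 11 samples (columns: tozasertib, etoposide, DMSO), as the log2 of CPM over the mean of the 4 DMSO samples. GABARAPL1 and SQSTM1 are darkest in the 3 tozasertib columns, ATG5 is lower in all 7 drug-treated columns, and ATP6V0B, GABARAP and GABARAPL2 are higher in DMSO replicate 1 than in the other DMSO columns.

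Most genes of the V1 sector rose. Of its 8 genes, 7 rose with etoposide and 6 with tozasertib, and none fell. ATP6V1A, the catalytic A subunit (ENSG00000114573.12, GRCh38 chr3:113746770-113812056, + strand), had 112, 119 and 120.3 CPM with tozasertib and 109, 118, 116 and 122 CPM with etoposide, against 76.5, 76.4, 74.2 and 83.6 CPM with DMSO. No drug-treated sample overlapped a DMSO sample. The log2 fold change was 0.59 ± 0.06 (SE, adjusted p = 2.24e-06) with tozasertib and 0.58 ± 0.06 (SE, adjusted p = 1.4e-06) with etoposide. ATP6V1G1, a subunit of the peripheral stalk, had 103, 109 and 109 CPM with tozasertib and 102, 105, 112 and 106 CPM with etoposide, against 78.8, 68.9, 72.3 and 64.3 CPM with DMSO. Again the groups stayed apart, and the log2 fold change was 0.59 ± 0.07 (SE, adjusted p = 7.55e-06) with tozasertib and 0.58 ± 0.06 (SE, adjusted p = 4.31e-06) with etoposide. ATP6V1B2, the nucleotide-binding B subunit, rose by 1.39-fold and 1.296-fold (tozasertib and etoposide, adjusted p = 4.57e-06 and 1.82e-05).

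The other V1 genes had smaller values, apart from ATP6V1F with etoposide, which is given further on with the values that depended on 1 sample. ATP6V1D of the central stalk rose by 1.17-fold with tozasertib (adjusted p = 0.00858) and 1.22-fold with etoposide (adjusted p = 0.00118). Without tozasertib replicate 4, the tozasertib calls of ATP6V1D, ATP6V1E1 and ATP6V1H were lost (adjusted p = 0.0518, 0.0645 and 0.11). ATP6V1E1 of the peripheral stalk had log2 fold changes of 0.23 (adjusted p = 0.0228) and 0.19 (adjusted p = 0.0393), and its DMSO replicate 1, at 139 CPM, lay above 4 of the 7 drug-treated samples, which began at 130.4 CPM. Its calls held under 12 of 17 alternatives with tozasertib (adjusted p up to 0.088) and 10 of 18 with etoposide (adjusted p up to 0.109), and without DMSO replicate 1 the values were 0.30 (adjusted p = 0.000199) and 0.27 (adjusted p = 0.00034). ATP6V1H, a regulatory subunit, had 0.21 (adjusted p = 0.0357) and 0.33 (adjusted p = 0.00165). The tozasertib call of ATP6V1H held under 7 of 17 alternatives (adjusted p up to 0.303) and was lost with the replicate number as a block (adjusted p = 0.071), and without DMSO replicate 1 its values were 0.28 (adjusted p = 0.00123) and 0.40 (adjusted p = 3.29e-05). ATP6V1C1, which joins the stator to the V0 sector, did not pass the test with tozasertib (log2 fold change 0.19, 95% interval 0.03 to 0.34) or with etoposide (0.05, -0.09 to 0.20). With tozasertib it stayed uncalled under 13 of 17 alternatives (adjusted p from 0.00299 to 0.168). Without DMSO replicate 4 the tozasertib value was 0.27 (adjusted p = 0.00299), and without DMSO replicate 1 it was 0.13 (adjusted p = 0.121).

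The V0 sector was mixed. Of its 6 genes, 2 rose with tozasertib (ATP6V0A2 and ATP6V0E1), and 3 rose and 1 fell with etoposide. ATP6V0E1, a small membrane subunit, had 117, 120.0 and 132 CPM with tozasertib and 116, 123, 133 and 132 CPM with etoposide, against 103, 75.4, 82.4 and 73.2 CPM with DMSO. ATP6V0E1 changed by 0.56 ± 0.10 (SE, adjusted p = 0.000413) on the log2 scale with tozasertib and 0.60 ± 0.10 (SE, adjusted p = 0.000134) with etoposide, and the groups did not overlap. The proteolipids that form the rotating ring were not called higher with either drug. ATP6V0C, the c subunit, had log2 fold changes of -0.12 (95% interval -0.31 to 0.07) and -0.06 (95% interval -0.24 to 0.12), and -0.02 and 0.04 without DMSO replicate 1. ATP6V0B, the c'' subunit, had 84.6, 85.0 and 89.3 CPM with tozasertib and 82.6, 90.3, 86.1 and 87.5 CPM with etoposide, against 147, 88.3, 95.8 and 89.8 CPM with DMSO. DMSO replicate 1 alone was high for this gene, and the log2 fold changes of -0.29 and -0.28 did not pass the test (adjusted p = 0.102 and 0.0838). Without DMSO replicate 1 they were -0.09 and -0.08 (adjusted p = 0.16 and 0.17), within a range of adjusted p over all alternatives of 0.00576 to 0.217 with tozasertib and 0.00367 to 0.17 with etoposide.

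The a subunit, which anchors the pump to its compartment, comes in isoforms, and with etoposide ATP6V0A1 and ATP6V0A2 were called in opposite directions. ATP6V0A2 had 44.7, 42.1 and 39.7 CPM with tozasertib and 41.2, 39.7, 37.3 and 37.6 CPM with etoposide, against 28.1, 34.1, 33.2 and 35.9 CPM with DMSO. It rose with tozasertib (0.36 ± 0.08, SE, adjusted p = 0.00194) and with etoposide (0.25 ± 0.08, SE, adjusted p = 0.0133), with no overlap between drug and DMSO. Without DMSO replicate 1, the lowest DMSO sample for ATP6V0A2, the values were 0.29 (adjusted p = 0.00119) and 0.18 (adjusted p = 0.0181). ATP6V0A1 had 38.6, 36.3 and 35.6 CPM with tozasertib and 35.9, 33.4, 32.7 and 33.9 CPM with etoposide, against 38.6, 40.1, 40.1 and 39.9 CPM with DMSO. It fell by 0.22 on the log2 scale with etoposide (adjusted p = 0.00299), while its value with tozasertib was -0.11 (adjusted p = 0.133), and without DMSO replicate 1 the values were -0.24 with etoposide (adjusted p = 0.00114) and -0.12 with tozasertib (adjusted p = 0.0639). When only transcripts annotated as coding were summed, the fall with etoposide was not called (-0.06, adjusted p = 0.629, within a range of 0.000974 to 0.629 over all alternatives). On the TPM scale, which accounts for transcript length, ATP6V0A2 made up 52.8% to 55.6% of the summed ATP6V0A1 and ATP6V0A2 level with tozasertib, 48.2% to 54.5% with etoposide and 31.5% to 45.6% with DMSO. The shares with either drug were thus all above those with DMSO. They leave out TCIRG1, a further a isoform that is not a member and had more reads than either. TCIRG1 averaged 90.0 CPM with tozasertib, 87.4 CPM with etoposide and 73.7 CPM with DMSO. Its log2 fold change was 0.29 with tozasertib (adjusted p = 0.0359) and 0.25 with etoposide (adjusted p = 0.0519).

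The accessory subunits showed the largest changes of the pump. ATP6AP2, also known as the prorenin receptor (ENSG00000182220.15, GRCh38 chrX:40579372-40606848, + strand), had 184, 191 and 209.9 CPM with tozasertib and 199, 222, 218 and 226 CPM with etoposide, against 132, 124, 124 and 126 CPM with DMSO. It rose with tozasertib (log2 fold change 0.63 ± 0.06, SE, adjusted p = 2.06e-06) and with etoposide (0.78 ± 0.06, SE, adjusted p = 1.23e-07). ATP6AP1, which takes part in assembly of the V0 sector, had 188, 197 and 197 CPM with tozasertib and 173, 191, 195 and 188 CPM with etoposide, against 129.8, 118, 112 and 108 CPM with DMSO. ATP6AP1 changed by 0.73 ± 0.07 (SE, adjusted p = 8.95e-07) on the log2 scale with tozasertib and 0.67 ± 0.06 (SE, adjusted p = 9.14e-07) with etoposide. For both genes every drug-treated sample was above every DMSO sample.

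**Figure D2:**
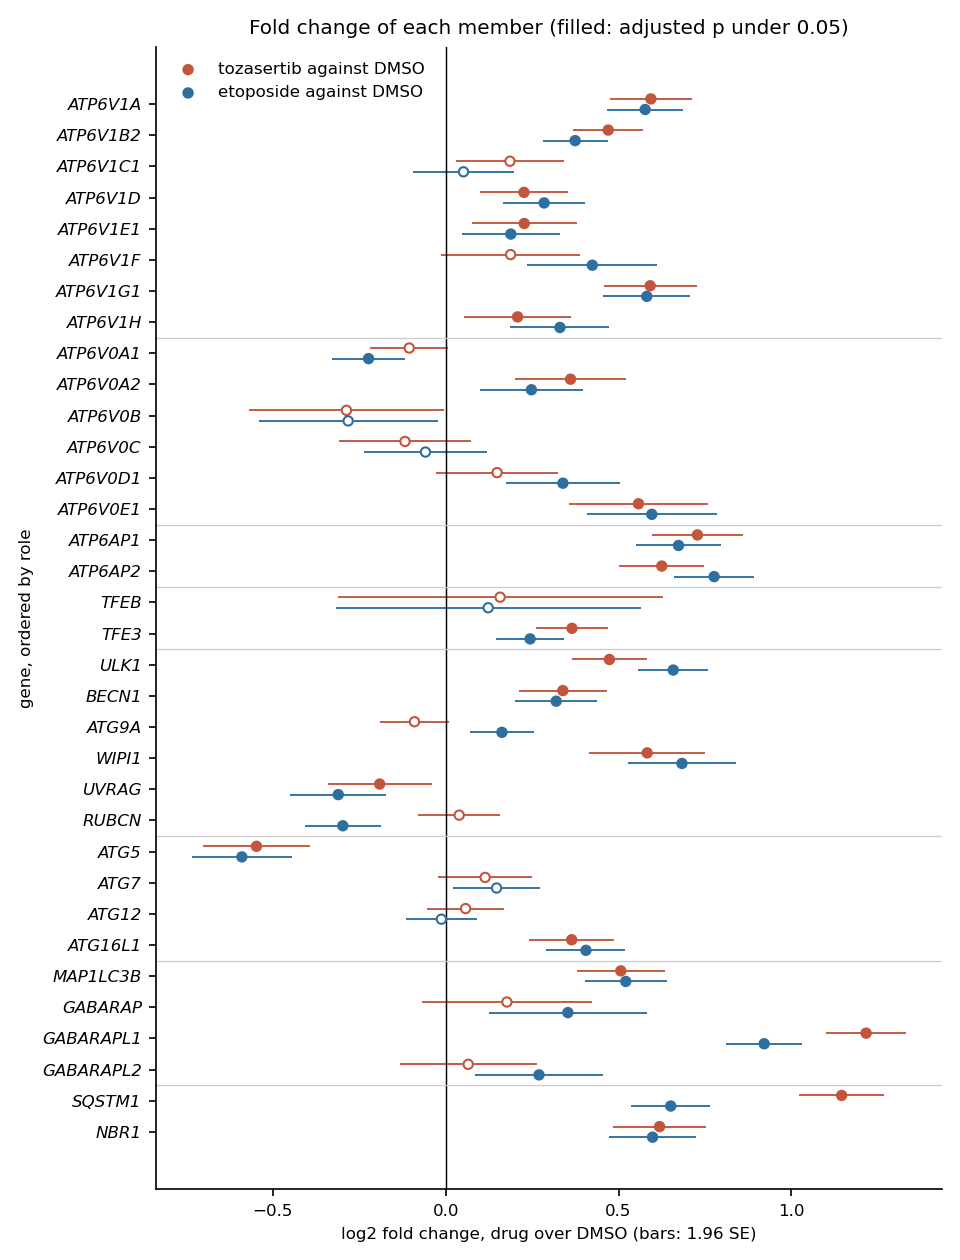
Log2 fold change of each member over DMSO (horizontal axis) with tozasertib and with etoposide, with bars of 1.96 SE and filled points for an adjusted p under 0.05; genes run down the page by role. Points of the V1 and accessory subunits lie right of 0 (0.05 to 0.78), whereas those of the V0 sector lie on both sides (-0.29 to 0.60).

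MiT/TFE factors bind an E-box with the core CACGTG, and the longer palindrome TCACGTGA is known as the core of the CLEAR element of lysosomal genes. Both motifs read the same on either strand, and each TCACGTGA holds a CACGTG. Of 28 members with an entry in the RefSeq promoter table (GRCh38.p14), 3 held CACGTG in the 250 bases before the annotated start, against 7.73% of 27305 genes with an entry, and 2 held TCACGTGA, against 1.04%. All 3 were among the 11 pump genes with an entry. ATP6V1A, ATP6V1B2, ATP6V1C1, ATP6V1H, ATP6V0E1 and UVRAG had no entry, so their promoters were not read. The sites are printed with 12 bases on each side, 5′ to 3′ on the gene's strand and with the core in capitals, to show where the longer palindrome is complete:
ATP6V1G1, chr9:114587699-114587728 (+), core 58 bases before the start: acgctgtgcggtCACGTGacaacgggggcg
ATP6V0D1, chr16:67481199-67481228 (-), core 59 bases before the start: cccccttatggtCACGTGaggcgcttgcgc
ATP6V0B, chr1:43974891-43974920 (+), core 57 bases before the start: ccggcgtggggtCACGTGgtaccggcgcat
ATP6V0B, chr1:43974909-43974938 (+), core 39 bases before the start: gtaccggcgcatCACGTGggcgagttaggt

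The palindrome is complete in ATP6V1G1 and ATP6V0D1. Of these, ATP6V1G1 was among the pump genes with the larger rises. ATP6V0D1, the d subunit, rose with etoposide (0.34, adjusted p = 0.0035) and was not called with tozasertib (0.15, adjusted p = 0.172). ATP6V0B, with its pair of sites, was called with neither drug. The 25 members with an entry and no CACGTG had a median log2 fold change of 0.23 with tozasertib and 0.28 with etoposide, and the 3 with one had 0.15 and 0.34. The match of letters is a description of these windows and not of binding.

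Of the MiT/TFE factors among the members, TFE3 was well expressed and TFEB was not. TFE3 had 135, 139 and 141 CPM with tozasertib and 125, 123, 131 and 129 CPM with etoposide, against 106, 112, 110.1 and 101 CPM with DMSO. It rose with both drugs (0.37 ± 0.05, SE, adjusted p = 6.12e-05 with tozasertib and 0.24 ± 0.05, SE, adjusted p = 0.000898 with etoposide). TFEB had 1.39 to 1.54 CPM with tozasertib, 1.24 to 1.57 CPM with etoposide and 0.995 to 1.93 CPM with DMSO, from 28 to 90 reads per sample. At that depth its change was not detectable, with 95% intervals of -0.31 to 0.63 and -0.32 to 0.56 on the log2 scale.

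Among factors that start autophagy and supply its membrane, ULK1, BECN1 and WIPI1 rose with both drugs. ULK1, the initiating kinase, had 121, 123 and 117 CPM with tozasertib and 138, 135, 141 and 134 CPM with etoposide, against 88.8, 91.1, 86.7 and 80.4 CPM with DMSO. The log2 fold change was 0.47 ± 0.06 (SE, adjusted p = 8.51e-06) with tozasertib and 0.66 ± 0.05 (SE, adjusted p = 1.74e-07) with etoposide. WIPI1, which binds the lipid PI3P made by the Beclin 1 complex, had 46.5, 47.0 and 51.0 CPM with tozasertib and 43.9, 49.9, 57.5 and 55.5 CPM with etoposide, against 30.6, 32.3, 32.5 and 33.2 CPM with DMSO. It rose by 1.498-fold and 1.61-fold with adjusted p = 6.54e-05 and 7.9e-06. BECN1, the scaffold of the lipid kinase complex, rose by 1.26-fold and 1.25-fold (adjusted p = 0.000568 and 0.000507). These 3 genes had no overlap between the drug-treated and the DMSO samples.

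UVRAG and RUBCN, partners of the Beclin 1 complex in membrane maturation, were lower with etoposide. UVRAG, an activating partner, fell by 0.19 with tozasertib (adjusted p = 0.0459) and by 0.31 with etoposide (adjusted p = 0.00212) on the log2 scale, at mean levels of 22.7, 20.9 and 25.9 CPM with tozasertib, etoposide and DMSO. The tozasertib call was lost under 12 of 17 alternatives, with adjusted p from 0.00262 to 0.369. RUBCN, which encodes the inhibitor Rubicon, had 59.9, 58.1 and 55.6 CPM with tozasertib and 47.3, 45.2, 45.7 and 45.1 CPM with etoposide, against 51.6, 56.8, 58.5 and 58.5 CPM with DMSO. It fell by 0.30 on the log2 scale with etoposide (adjusted p = 0.000493), where the groups did not overlap, and had 0.04 with tozasertib (adjusted p = 0.596). ATG9A, a lipid scramblase carried on vesicles to the growing membrane, had 76.6, 75.7 and 75.9 CPM with tozasertib and 89.2, 87.9, 93.4 and 92.2 CPM with etoposide, against 79.7, 83.9, 82.1 and 78.4 CPM with DMSO. The log2 fold change of ATG9A was 0.16 ± 0.05 (SE, adjusted p = 0.00924) with etoposide and -0.09 ± 0.05 (SE, adjusted p = 0.142) with tozasertib.

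The conjugation machinery was split. ATG5, the acceptor of ATG12 (ENSG00000057663.16, GRCh38 chr6:106045423-106325791, - strand), had 19.8, 19.6 and 18.9 CPM with tozasertib and 18.4, 20.6, 19.4 and 17.2 CPM with etoposide, against 31.0, 25.8, 28.5 and 28.3 CPM with DMSO. Every drug-treated sample was below every DMSO sample, and ATG5 fell by 0.55 with tozasertib and by 0.59 with etoposide on the log2 scale (SE 0.08 and 0.07, adjusted p = 5.83e-05 and 1.36e-05). Both calls held under all alternatives, where the values ran from -1.16 to -0.46 with tozasertib and from -0.64 to -0.53 with etoposide. Between the drugs the values of ATG5 ran from -0.54 to 0.13 over the alternatives, with no call. ATG16L1, its partner on the membrane, rose by 1.29-fold and 1.32-fold (adjusted p = 0.000236 and 5.02e-05). ATG7, the activating enzyme, had 0.11 (adjusted p = 0.174) and 0.15 (adjusted p = 0.0668), and the etoposide value was called under 6 of 18 alternatives, with adjusted p from 0.0105 to 0.38. ATG12 had 0.06 (95% interval -0.05 to 0.17) and -0.01 (95% interval -0.12 to 0.09), intervals that reach no further than 0.17 from 0.

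The deposited estimates also divided the ATG5 level differently among its transcripts. The coding transcript ATG5-208 was listed at 0 in all 7 drug-treated samples and at 6.90, 10.4, 7.53 and 5.51 TPM in the DMSO samples. ATG5-203, annotated as a target of nonsense-mediated decay, was listed at 3.10, 6.00 and 4.02 TPM with tozasertib, at 0.848, 1.74, 0.888 and 0 TPM with etoposide and at 0 with DMSO. The canonical transcript ATG5-204 took 34.7% ± 9.4 of the ATG5 level with tozasertib (SD, n = 3), 59.5% ± 9.0 with etoposide and 24.8% ± 17.5 with DMSO (SD, n = 4 each), and was listed at 0 in DMSO replicate 2. A value of 0 may be a failed estimate between transcripts that share most of their sequence. The shares of the main transcripts of the 34 members are a description: exact two-sided permutation tests allow no p below 0.0286 with etoposide and 0.0571 with tozasertib, and with 68 of them none could have passed after adjustment.

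All ATG8 genes among the members rose with etoposide, 4 of 4, and 2 of 4 with tozasertib. GABARAPL1 (ENSG00000139112.11, GRCh38 chr12:10212458-10223128, + strand) had 65.2, 60.7 and 69.9 CPM with tozasertib and 53.6, 53.6, 51.6 and 54.0 CPM with etoposide, against 28.5, 28.2, 27.2 and 28.5 CPM with DMSO. No groups overlapped. It rose by 2.32-fold with tozasertib (log2 fold change 1.22 ± 0.06, SE, adjusted p = 2.08e-09) and by 1.89-fold with etoposide (0.92 ± 0.06, SE, adjusted p = 1.45e-08). MAP1LC3B, which encodes LC3B, had 123, 127 and 139 CPM with tozasertib and 123, 131, 133 and 138 CPM with etoposide, against 98.7, 90.0, 88.9 and 87.9 CPM with DMSO. It rose with both drugs (0.51 ± 0.07, SE, adjusted p = 1.94e-05 and 0.52 ± 0.06, SE, adjusted p = 7.37e-06) with no overlap. Its near-identical copy MAP1LC3B2 held 478 reads over all samples, and reads could be split between them.

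GABARAP was the most abundant of the family, with 67.6% to 68.5% of the summed ATG8 TPM with tozasertib, 68.5% to 69.9% with etoposide and 67.3% to 72.3% with DMSO. It had 303, 313 and 327 CPM with tozasertib and 334, 357, 371 and 359.8 CPM with etoposide, against 371, 253, 255 and 232 CPM with DMSO. Its DMSO replicate 1 was as high as the highest drug-treated sample, and the other 3 DMSO samples were below all of them. The log2 fold change was 0.18 ± 0.13 (SE, adjusted p = 0.24) with tozasertib and 0.35 ± 0.12 (SE, adjusted p = 0.0189) with etoposide. Without DMSO replicate 1 the value with tozasertib was 0.34 (adjusted p = 0.000151), over a range of adjusted p from 0.000151 to 0.446 in all alternatives, and that with etoposide was 0.52 (adjusted p = 1.75e-06), a call that held under 15 of 18 alternatives (adjusted p up to 0.0604). GABARAPL2 had 0.07 with tozasertib (adjusted p = 0.6), and 0.19 without DMSO replicate 1 (adjusted p = 0.00539). Its etoposide value of 0.27 passed (adjusted p = 0.025) and was 0.40 without DMSO replicate 1 (adjusted p = 7.92e-06), but the call held under 13 of 18 alternatives and was lost without DMSO replicate 2, 3 or 4 or etoposide replicate 2 or 4 (adjusted p up to 0.0789). The share of GABARAPL1 was above DMSO in every drug-treated sample, with 4.16% to 4.62% of the summed TPM with tozasertib, 3.09% to 3.54% with etoposide and 1.78% to 2.43% with DMSO.

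The cargo receptors SQSTM1 and NBR1 rose with both drugs. SQSTM1, which encodes p62 (ENSG00000161011.20, GRCh38 chr5:179806398-179838078, + strand), had 854, 865 and 868 CPM with tozasertib and 588, 615, 619 and 627 CPM with etoposide, against 434, 386, 372 and 366 CPM with DMSO. The 3 groups were apart, and SQSTM1 rose by 2.21-fold with tozasertib (log2 fold change 1.15 ± 0.06, SE, adjusted p = 5.37e-09) and by 1.57-fold with etoposide (0.65 ± 0.06, SE, adjusted p = 5.94e-07). NBR1 had 138, 145 and 139.7 CPM with tozasertib and 129.9, 136, 143 and 148 CPM with etoposide, against 82.5, 91.8, 92.8 and 100.1 CPM with DMSO. NBR1 changed by 0.62 ± 0.07 (SE, adjusted p = 5.34e-06) on the log2 scale with tozasertib and 0.60 ± 0.06 (SE, adjusted p = 3.54e-06) with etoposide. In TPM, SQSTM1 averaged 694 with tozasertib, 499 with etoposide and 274 with DMSO, against 57.6, 53.5 and 31.4 for NBR1, so SQSTM1 was the higher of these receptors per length in each group. TPM values ran higher with the drugs for genes at large. The median log2 ratio over all tested genes was 0.26 with tozasertib and 0.15 with etoposide against DMSO. Changes of genes between groups were therefore read from counts and CPM, and TPM was used to set genes side by side. Sums, shares and transcript levels are also given by sample in TPM, and that shift bears on the sums and transcript levels.

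Pump subunits and autophagy factors had medians close to each other. With etoposide, 12 of 16 pump subunits rose and 1 fell at a median log2 fold change of 0.33, and 11 of 16 autophagy factors rose and 3 fell at a median of 0.34. With tozasertib, 10 pump subunits rose and 0 fell at a median of 0.23, and 8 autophagy factors rose and 2 fell at 0.26. With 1 sample left out, 7 to 12 pump subunits and 8 to 10 autophagy factors rose with tozasertib. With etoposide these counts were 11 to 12 and 9 to 12. The values of the autophagy factors spread wider, between -0.59 and 0.92 with etoposide and between -0.55 and 1.22 with tozasertib, against -0.28 to 0.78 and -0.29 to 0.73 for the pump. A difference between the classes was not tested.

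The drugs were next set against each other. With tozasertib against etoposide, SQSTM1, RUBCN and GABARAPL1 were higher and ATG9A was lower, and all 4 are autophagy factors. Of the 34 members 8.82% were thus higher and 2.94% lower, against 5.66% and 5.45% of all genes. Counts this small and near those shares are no result about autophagy factors or pump subunits as a class. SQSTM1 differed by 0.49 ± 0.06 (SE, adjusted p = 0.000196), GABARAPL1 by 0.29 ± 0.06 (SE, adjusted p = 0.00555), RUBCN by 0.34 ± 0.06 (SE, adjusted p = 0.00274) and ATG9A by -0.25 ± 0.05 (SE, adjusted p = 0.0059) on the log2 scale. Samples of the drugs did not overlap for any of these genes. The same held for uncalled members (ATP6V1B2, ATP6V1C1, ATP6V1F, TFE3, GABARAP, GABARAPL2, ULK1 and UVRAG), so a lack of overlap does not mark the called genes. With length-scaled counts the calls of RUBCN (adjusted p = 0.127) and ATG9A (adjusted p = 0.0743) were lost. None of the 16 pump subunits was called (edgeR, 0 higher and 0 lower, with 2 at an unadjusted p under 0.05), their log2 values ran from -0.24 to 0.13, and DESeq2 called 0. Without DMSO replicate 1, ATP6V1F and ATP6V0D1 were called lower.

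ULK1 lay at the threshold between the drugs, with -0.18 ± 0.06 (SE, adjusted p = 0.0506) on the log2 scale, and 4 of 17 alternatives, in which no single DMSO sample was left out, called it, with adjusted p from 0.00107 to 0.215. In this comparison the DMSO samples enter through the filter, the scaling factors and the shared estimate of the spread. Without DMSO replicate 1, ULK1 was called (-0.19, adjusted p = 0.0168), as were ATP6V1F, ATP6V0D1, GABARAP and GABARAPL2, so that 6 members were lower and 3 higher (10.9% and 9.1% of all genes). ULK1 was also called without DMSO replicate 4 (adjusted p = 0.0334), and the calls of members were those of the full fit without DMSO replicate 2 or 3. When the fit held the tozasertib and etoposide samples alone, 6 members were lower (ATP6V1F, ATP6V0D1, GABARAP, GABARAPL2, ULK1 and ATG9A) and 4 were higher (SQSTM1, GABARAPL1, RUBCN and TFE3), where 10.4% of all genes were called lower and 10.5% higher. ATP6V1F had -0.22 in that fit (adjusted p = 0.0333) and GABARAPL2 had -0.19 (adjusted p = 0.0108). Their adjusted p over the same 17 alternatives ran from 0.0218 to 0.4 and from 0.00552 to 0.498.

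**Figure D3:**
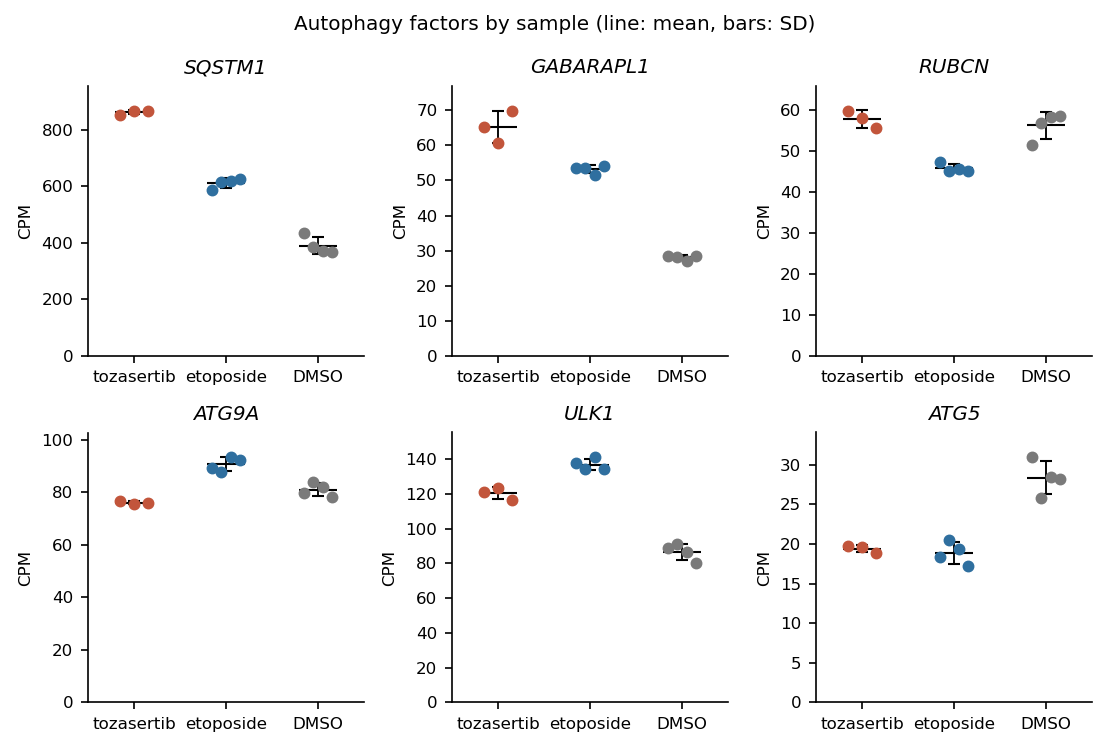
CPM of 6 autophagy factors in each sample with tozasertib (3), etoposide (4) and DMSO (4); the line is the mean, the bars 1 SD and each axis starts at 0. SQSTM1 and GABARAPL1 are ordered tozasertib, etoposide, DMSO from high to low, RUBCN is low with etoposide alone, ATG9A and ULK1 are highest with etoposide, and ATG5 is highest with DMSO.

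Several calls of short genes depended on DMSO replicate 1. Over the 34 members, DMSO replicate 1 had the highest CPM of the 4 DMSO samples for 20, among them 12 of 16 pump subunits and 7 of 16 autophagy factors. The log2 ratio of DMSO replicate 1 to the other DMSO samples had a Spearman rho of -0.72 with length across the members, and that of DMSO replicate 4 had 0.68. These are correlations across genes of 1 library and genes are not independent replicates. Without DMSO replicate 1, 23 members rose and 2 fell with tozasertib (30.4% and 31.0% of all genes in that fit), and 24 rose and 4 fell with etoposide (28.7% and 31.9%). The 4 genes gained were ATP6V1F (0.30, adjusted p = 0.00235), ATP6V0D1 (0.23, adjusted p = 0.00864), GABARAP and GABARAPL2. In the fit of all samples ATP6V1F, of the central stalk, had 0.19 with tozasertib (adjusted p = 0.133) and 0.42 with etoposide (adjusted p = 0.00191). Without DMSO replicate 1, the etoposide values were 0.53 for ATP6V1F (adjusted p = 1.02e-05) and 0.42 for ATP6V0D1 (adjusted p = 5.75e-05). Over all alternatives, the adjusted p with tozasertib ran from 0.00162 to 0.292 for ATP6V1F, from 0.00864 to 0.482 for ATP6V0D1 and from 0.00539 to 0.904 for GABARAPL2.

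**Figure D4:**
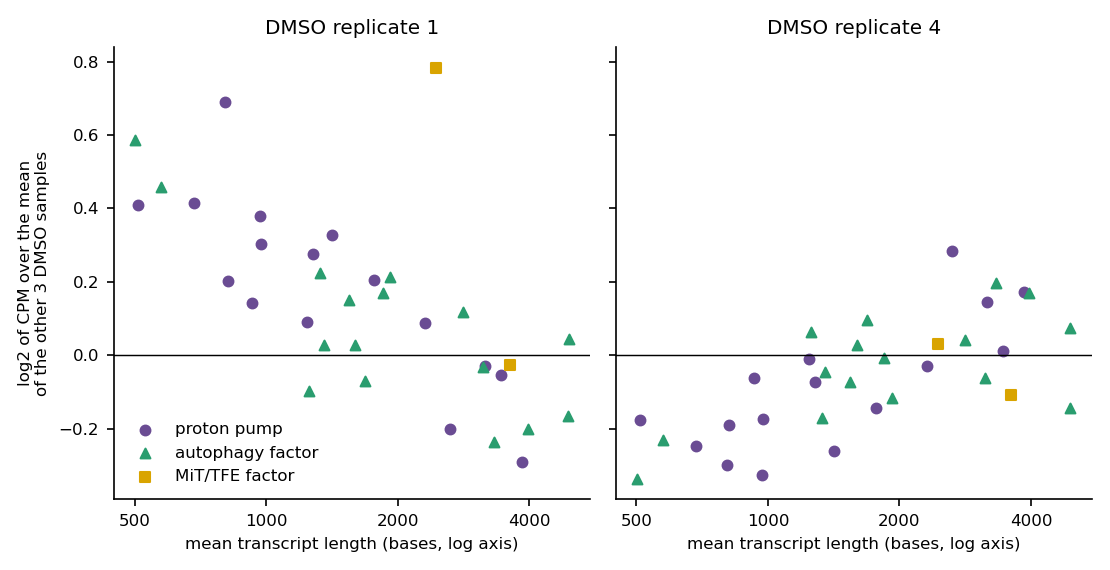
Log2 of the CPM in DMSO replicate 1 (left) or 4 (right) over the mean of the other 3 DMSO samples, against mean transcript length in bases on a log axis; each point is 1 of the 34 members. Short members lie above 0 in replicate 1 and below 0 in replicate 4, with Spearman rho of -0.72 and 0.68. The point near 0.8 on the left is TFEB, which has at most 90 reads in any sample.

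Genes of the same pathways that are not members were read from 8 lists, whose counts stand against 29.9% of all genes higher and 29.4% lower with tozasertib and 27.7% higher and 30.6% lower with etoposide. Most of these lists hold few genes, and a count near those shares is no result about a list. Other subunits of the V-ATPase had 2 of 8 tested genes higher and 1 lower with tozasertib and 1 higher and 2 lower with etoposide. ATP6V0E2, the paralogue of ATP6V0E1, fell by 0.82 with tozasertib (adjusted p = 2.39e-05) and by 0.54 with etoposide (adjusted p = 0.00035) on the log2 scale. The fusion of autophagosomes with lysosomes had 8 of 12 genes higher and 1 lower with tozasertib and 10 higher and 1 lower with etoposide. VPS39 and VPS41, subunits of the HOPS tethering complex, had log2 fold changes of 0.61 and 0.65 with tozasertib (adjusted p = 3.97e-07 and 2.18e-06) and 0.61 and 0.59 with etoposide (adjusted p = 1.92e-07 and 2.88e-06). PLEKHM1, an adaptor of the same step, had 0.65 (adjusted p = 2.95e-06) and 0.67 (adjusted p = 1.02e-06).

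Lists for assembly of the pump and for the start of autophagy held calls in both directions. Of 11 genes for assembly and regulation of the pump, 3 rose and 2 fell with tozasertib and 2 rose and 2 fell with etoposide, and NCOA7 fell by 0.40 (adjusted p = 0.0139) and by 0.95 (adjusted p = 1.4e-05) on the log2 scale. Of 16 further initiation genes, 6 rose and 2 fell with each drug. TMEM41B, a lipid scramblase of the endoplasmic reticulum, fell by 1.18 with tozasertib (adjusted p = 1.06e-08) and by 1.20 with etoposide (adjusted p = 4.08e-09), at mean levels of 24.5, 24.2 and 55.5 CPM with tozasertib, etoposide and DMSO. ATG2A, which transfers lipids to the growing membrane, rose by 0.45 (adjusted p = 0.000237) and 0.49 (adjusted p = 5.99e-05).

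Of further ATG8 and conjugation genes, 3 of 11 rose and 4 fell with tozasertib, and 2 rose and 4 fell with etoposide, near the shares over all genes. ATG3, the enzyme that transfers ATG8 proteins to lipid, fell by 0.48 with tozasertib (adjusted p = 6.05e-05) and by 0.41 with etoposide (adjusted p = 0.000113). MAP1LC3C, an LC3 paralogue, averaged 2.60 CPM with tozasertib, 5.61 CPM with etoposide and 0.916 CPM with DMSO, and its log2 fold change with etoposide was 2.62 (SE 0.24, adjusted p = 7.36e-07).

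Of receptors of selective autophagy, 6 of 16 were higher and 7 lower with tozasertib and 7 higher and 7 lower with etoposide, where close to 30% of all genes were called in each direction. BNIP3, a receptor on mitochondria, fell by 2.58 on the log2 scale with either drug (adjusted p = 1.88e-10 with tozasertib and 7.13e-11 with etoposide), at 32.7 CPM with tozasertib, 32.6 CPM with etoposide and 195 CPM with DMSO. Receptors of the endoplasmic reticulum went both ways. CCPG1 rose by 1.08 with tozasertib (adjusted p = 4.07e-09) and 1.21 with etoposide (adjusted p = 8.77e-10), whereas RTN3 fell by 1.34 (adjusted p = 5.03e-09) and by 1.27 (adjusted p = 3.22e-09).

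Of 21 genes of mTORC1 and lysosomal nutrient signalling, 12 rose and 3 fell with tozasertib and 12 rose and 4 fell with etoposide. SESN1 and SESN2 encode sestrins, stress-induced inhibitors of mTORC1. Their log2 fold changes were 1.88 and 1.31 with tozasertib (adjusted p = 2.79e-10 and 4.3e-09) and 1.63 and 1.16 with etoposide (adjusted p = 5.1e-10 and 7.85e-09). Of 7 genes for MiT/TFE factors and calcium release, 3 rose and 2 fell with each drug. MCOLN1, the calcium channel of the lysosome, rose by 0.61 (adjusted p = 3.58e-05) and 0.45 (adjusted p = 0.00027), and PPP3R1, a subunit of the phosphatase calcineurin, fell by 0.40 (adjusted p = 0.000121) and by 0.39 (adjusted p = 8.47e-05) with tozasertib and with etoposide.

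**Figure D5:**
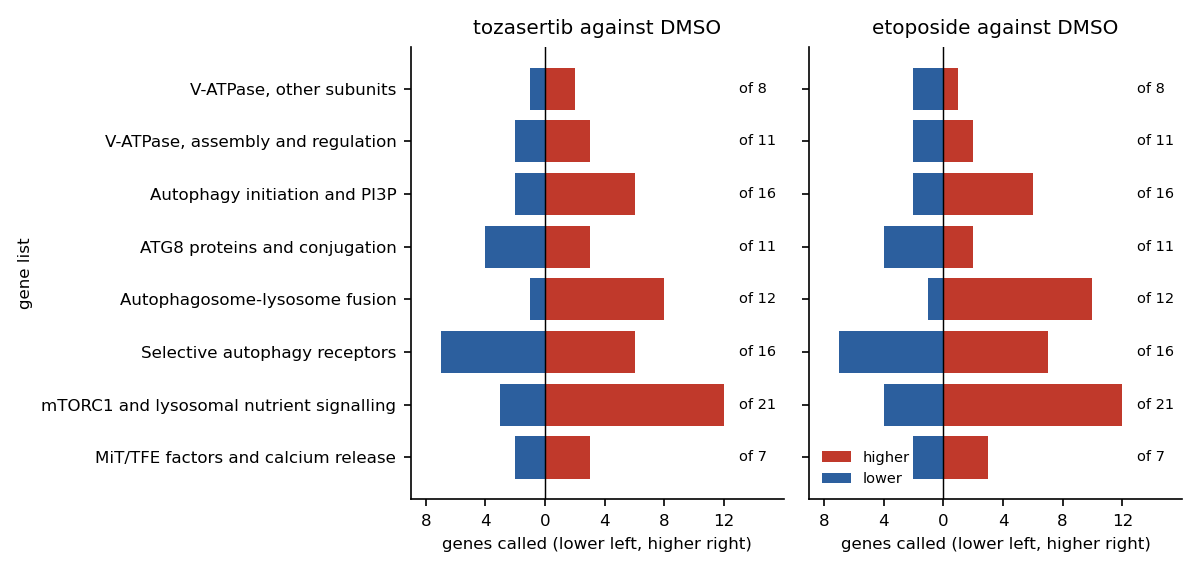
Number of genes called higher (right of 0) and lower (left of 0) in each of 8 lists of further pathway genes, with tozasertib against DMSO (left) and etoposide against DMSO (right); the number at the right edge of each panel is how many were tested. Fusion (8 and 10 of 12) and mTORC1 signalling (12 and 12 of 21) have the most higher calls, and selective autophagy receptors have 7 lower calls with each drug.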

How the data were processed

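RNA from SK-MEL-103 cells was purified on RNeasy columns, and poly(A)-enriched directional NEBNext Ultra II libraries were sequenced by the authors as single-end reads of 72 bases. Tools named by the submitters' processing notes were Salmon 1.9.0 and cutadapt 4.7, with DESeq2 1.40.2 under R 4.4.2 and the build GRCh38. The study's methods name another aligner, STAR, but the deposited columns are those of Salmon, for which the options and the release of the transcript set were not given in the sources used here. Per the file headers, each deposited table holds estimated counts of reads, TPM and effective length for 251645 transcripts of 1 sample. The deposited estimated counts are not normalized, and the authors' TPM values are scaled for length and total.

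Transcripts were assigned to genes with GENCODE release 44, where 99.6% matched by ID and 0.318% to 0.359% of reads did not. Estimated counts were summed to 61542 genes and rounded. All 11 samples were fitted with edgeR 4.0.16 (R 4.3.3), 1 mean per group, TMM factors, filterByExpr (17033 genes kept) and the quasi-likelihood test, with p-values adjusted over all genes by Benjamini-Hochberg and calls at 0.05. The SE is the log2 fold change over the square root of F, and intervals are 1.96 SE on each side. Their width comes from the normal distribution, so with 11 samples they are narrower than 95% intervals of the quasi-likelihood test. An interval that leaves out 0 is thus no call. No pair of replicates differed by less than sampling noise. The fit was tested on simulated data. Alternatives were DESeq2 1.42.0, RLE factors, library size alone, no filter, each sample left out, a replicate block, length-scaled counts, a length offset, coding transcripts alone and only the groups compared; leaving out DMSO replicates 1 and 4 together was added after the data were seen. Transcript shares are given as a description. The pathway and marker lists, like the members, were chosen with earlier results of these data known. All members are named, and of each pathway list up to 3 genes with the smallest adjusted p in each drug among those with at least 5 CPM in a group. MITF and TFEC are named besides, as relatives of TFE3 and TFEB.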

Additional observations from a re-analysis of the deposited data

Results flagged for a closer look

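The levels of the 34 members were screened for a sample far from the others in the 4 etoposide and the 4 DMSO samples, 68 groups in all, by the gap of the highest or lowest sample to its neighbour over the range of the group (Dixon's test at its 95% critical value). The 3 tozasertib samples were too few. Chance flags about 5% of groups, and 6 were flagged, all of them DMSO replicate 1. It was the highest DMSO sample for ATP6V1F (60.6 CPM, others 44.9 to 46.0), ATP6V1H (39.7 CPM, others 32.3 to 33.2), ATP6V0B (147 CPM, others 88.3 to 95.8), GABARAP (371 CPM, others 232 to 255) and GABARAPL2 (118 CPM, others 83.1 to 87.3), and the lowest for ATP6V0A1 (38.6 CPM, others 39.9 to 40.1). No etoposide sample was flagged.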

How the results depend on the processing

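Against DMSO, no called member changed direction under any alternative: of 612 values with etoposide 583 kept their side of the threshold, 20 lost a call and 9 gained one, and of 578 with tozasertib 525 kept it, 28 lost and 25 gained. Between the drugs, where single DMSO samples were not left out in this count, 562 of 578 kept it, 2 lost (RUBCN and ATG9A with length-scaled counts) and 14 gained. With etoposide the lost calls were of ATP6V1E1, ATP6V1H, ATP6V0A1, ATG9A, GABARAP, GABARAPL2 and RUBCN. With tozasertib they were of UVRAG, ATP6V1H, ATP6V1E1 and ATP6V1D. The cause was not tested.

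Medians of autophagy factors moved by more than their replicate SD of 0.02. With etoposide (0.34) they were 0.36 with DESeq2, 0.36 with RLE factors, 0.39 with library size alone, 0.29 with length-scaled counts, 0.39 with the length offset, 0.37 in the fit of these groups, 0.42 without DMSO replicates 1 and 4, and 0.27 to 0.41 with 1 sample left out. With tozasertib (0.26) they were 0.35 with library size alone, 0.31 with the length offset, 0.33 without DMSO replicates 1 and 4, and 0.21 to 0.37 with 1 sample left out. The pump median with tozasertib (0.23) was 0.32 with library size alone and 0.31 with the length offset. Library size alone also moved the median of all genes to 0.11 with tozasertib and 0.04 with etoposide. Between the drugs the autophagy median was -0.0255 with DESeq2, -0.0255 with RLE factors, 0.0405 with library size alone and -0.0362 with the length offset.

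Small counts moved. Lower members with tozasertib, 2 autophagy factors, were 1 with library size alone, length-scaled counts, coding transcripts or the fit of these groups, and 1 to 2 with 1 sample left out, while the length offset gave 4, of which 1 was a pump subunit. Without the filter 1 pump subunit and 1 autophagy factor were lower with tozasertib and 2 pump subunits with etoposide, against 0 with coding transcripts and 1 to 2 with 1 sample left out. Between the drugs, lower members, 1 autophagy factor, were 2 with DESeq2, RLE factors or the length offset, 0 with length-scaled counts, and 6 (2 pump subunits and 4 autophagy factors) in the fit of these groups or without DMSO replicates 1 and 4. All genes called between the drugs, 964 higher and 929 lower, were 1785 and 1764 in the fit of these groups, 1712 and 2031 without DMSO replicates 1 and 4, 601 and 518 with length-scaled counts, 1550 lower with DESeq2 and 1766 lower with the length offset. With 1 tozasertib or etoposide sample left out they were 562 to 1147 higher and 470 to 1028 lower, and with 1 DMSO sample left out 845 to 1543 and 782 to 1852, highest without DMSO replicate 1; those without tozasertib replicate 1 were 562 and 470, without tozasertib replicate 2 586 and 483, and without etoposide replicate 3 589 lower.

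Deviations of same-numbered samples correlated at -0.04 to 0.05 between etoposide and DMSO and -0.09 to 0.02 between tozasertib and DMSO. Between tozasertib and etoposide, same-numbered samples correlated at 0.09 to 0.23. Differently numbered samples of these drugs had negative values, down to -0.21, apart from etoposide replicate 3 with tozasertib replicate 4 (0.16). Whether the replicate numbers pair the samples was not tested. With the replicate number as a block, the lower members with tozasertib were 1, an autophagy factor, since UVRAG was not called, ATP6V1H and ATP6V1E1 each lost 1 call, and no other call of a member changed. The count of promoters with CACGTG stayed at 3 when the 50 bases after the start were added. TFEB, with at most 90 reads, is limited by depth.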

Other observations

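Summed over the genes of the V1 and V0 sectors, the deposited TPM values stood in a ratio of 1.26 to 1.29 with tozasertib, 1.25 to 1.28 with etoposide and 0.934 to 1.21 with DMSO. The lowest DMSO value was that of replicate 1. The sum over all 16 pump genes was 2209 to 2370 TPM with tozasertib, 2112 to 2299.6 TPM with etoposide and 1514 to 1586 TPM with DMSO, on a scale where genes at large were also higher with the drugs.

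Within genes, the deposited estimates placed 75.0% ± 5.2 of the ATP6V1A level on transcript ATP6V1A-201 with tozasertib (SD, n = 3), 75.7% ± 7.1 with etoposide and 63.8% ± 16.4 with DMSO (SD, n = 4 each). BECN1-213 took 46.1% ± 3.7 of BECN1 with tozasertib, 47.8% ± 3.4 with etoposide and 39.5% ± 2.8 with DMSO. These shares are a description, since the permutation tests of the main transcripts could not have passed after adjustment.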
